A study of Homo sapiens
Rattus norvegicus and Homo sapiens with 10 samples.

Results

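The 6 brain tumours of a xenograft series were compared with its 3 rat brain controls, described as tumour-free. Thus 9 of the 10 samples entered the comparison, chosen by their labels. The remaining sample, a culture of the same cells, is given beside the results as a reference. The tumours were grown from U251N, an established human glioblastoma cell line, injected into the brains of adult female immune-compromised RNU/RNU rats, a nude strain that lacks mature T cells. The 3 primary tumours were not ablated. The 3 recurrent tumours regrew after LITT (laser interstitial thermal therapy), an ablation by heat from a laser probe under imaging. All 9 in vivo samples, controls included, are labelled as U251N brain xenograft tissue; control replicate 1 was a failed graft and control replicates 2 and 3 were procedural controls. The study used the controls to check quality and contamination, and made no contrast of its own between them and the tumours. All tumours came from 1 cell line. The labels tie no sample to an animal, so the p-values measure the spread between samples, which may be in part technical.

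Per the labels, graft reads made up 29.44% to 64.4% of the tumour reads and 0.33%, 0.55% and 4.9% of the reads of control replicates 1, 2 and 3. Control replicate 3 also carried a broad tumour-like profile in its counts, described below. Whether that sample was free of tumour, as described, was not tested. Control replicate 3 is shown apart, and the gene results are given with and without it. Neuronal genes were counted in all 3 controls, although 4 of the 20 neuron markers examined had no count in any of them. All counts are assigned to human genes. A count under a human gene can come from the graft or from rat RNA of matching sequence, and these sources cannot be told apart in the table; nor can fewer cells of a type be told apart from less RNA per cell.

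As background, glioblastoma lines of this kind express intermediate filaments, matrix proteins and cell-cycle genes. Neurons of adult brain are rich in RNA for glutamate receptors, ion channels, synaptic vesicle proteins and neuron-specific RNA-binding proteins. Structural small RNAs, such as the RNA of the signal recognition particle, 7SK and 5.8S ribosomal RNA, are abundant in every cell and have sequences that are strongly conserved among mammals.

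A near-identical pair of noncoding genes of the signal recognition particle RNA, RN7SL1 and RN7SL2, differed in how their raw counts stood between the groups. The particle helps direct secreted proteins to the endoplasmic reticulum. RN7SL1 had 971442, 1192237 and 914071 counts in control replicates 1 to 3, 1156767, 1786573 and 933019 in the primary tumours and 1468680, 736160 and 1334152 in the recurrent tumours. Its raw counts overlapped between the groups although every tumour library was far larger. RN7SL2 had 1369, 3539 and 28230 counts in the controls, 371616, 732991 and 559482 in the primary tumours and 327433, 278064 and 354315 in the recurrent tumours. Every tumour lay far above every control. The RN7SL2 count was 0.141%, 0.297% and 3.09% of the RN7SL1 count in control replicates 1 to 3. It was 32.1%, 41.0% and 60.0% in the primary tumours, 22.3%, 37.8% and 26.6% in the recurrent tumours and 82.5% in the culture. The 9 in vivo libraries had the same order by this ratio as by labelled graft percentage. The pair was picked after its values were seen, so the order is a description with no test, and Salmon divides reads between such close copies by a model.

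The 5.8S ribosomal RNA genes, whose product sits in the large ribosomal subunit, could be read as a sum only. The table held 14 genes of that name, of which 9 had a transcript sequence in GENCODE release 29 and 4 shared the sequence below (RNA5-8SN2, GRCh38 chr21:8212572-8212724, plus strand, 153 bases). It is in lower case throughout because no base separates those copies.
RNA5-8SN2: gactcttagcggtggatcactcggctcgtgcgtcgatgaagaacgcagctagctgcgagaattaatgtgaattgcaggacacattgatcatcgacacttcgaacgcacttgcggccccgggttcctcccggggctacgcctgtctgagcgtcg
The copy with most counts was RNA5-8SN2 in 7 of the 9 in vivo libraries, RNA5-8SN1 in recurrent replicate 3 and RNA5-8SN5 in control replicate 3. Summed over the 14 genes there were 113467, 168126 and 183197 counts in the controls, which were 8.35%, 9.88% and 4.41% of those libraries. The tumours held 188696 to 309060, or 0.549% to 1.32%.

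The libraries differed in size and make-up. Totals were 1358753, 1702196 and 4158124 estimated counts in the controls and 20321590 to 39714714 in the tumours. Structural small RNA genes held 92.2%, 89.5% and 31.6% of the control counts (Wilson 95% interval for control replicate 1, 92.1% to 92.2%; such intervals cover counting error only). They held 10.2% ± 3.28 (SD, n = 6) of the tumour counts, with a range of 6.38% to 14.5%. Every control lay above every tumour. The tumour mean was lower by 60.9 percentage points, with a two-sided exact permutation p = 0.0238, the smallest that 6 against 3 samples can give. Against control replicates 1 and 2 the exact permutation p was 0.0714, again the smallest possible. Outside the structural genes the controls held 106502, 178785 and 2844766 counts. The RNA integrity number was 6.1 in control replicate 2 and 7.8 to 8.9 in the other 8 in vivo samples, and its part in the results was not tested.

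The 13 protein genes of mitochondrial DNA, which encode parts of the respiratory chain and of ATP synthase, did not separate the groups. They held 0.217%, 1.49% and 1.49% of the counts outside structural genes in control replicates 1 to 3 and 1.20% ± 0.216 (SD, n = 6) in the tumours (two-sided exact permutation p = 0.690; without control replicate 3, exact permutation p = 0.500). All 6 tumours lay between control replicate 1 and the other controls. Without control replicate 1 the tumour mean was lower by 0.298 percentage points, against 0.127 higher with it.

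For 45 of the 13273 protein-coding genes tested the difference between the groups needed no scaling. In these genes every control held more raw counts than every tumour, although each tumour library was several times larger than each control library. All 45 were called lower in tumours in both fits described below, in which 4.86% and 8.27% of all genes tested were called lower. The same counts chose these genes, so their calls were all but fixed and add no support. The opposite order, every tumour above every control in raw counts, held for 14876 (90.8%) of the tested genes, in tumour libraries that were all larger. Without control replicate 3 the 45 became 56, and with any other library left out the number was 46 to 51. Of the 45 genes, 7 were on one of the gene lists and 27 had under 10 counts in the culture. The set was drawn up after the data were seen and is a description.

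GRIA2, a subunit of the AMPA receptor for glutamate (GRCh38 chr4:157204182-157366075, plus strand), had the most counts among them. It had 2076, 1514 and 1369 counts in control replicates 1 to 3, 308, 136 and 56 in the primary tumours, 493, 165 and 253 in the recurrent tumours and 9 in the culture. The lowest control held more than the highest tumour, which was recurrent replicate 1. Its log2 fold change, tumours over controls, was -10.31, SE 1.18, edgeR adjusted p = 0.00043 with 3 controls and -10.80, SE 0.84, edgeR adjusted p = 1.51e-06 without control replicate 3. With plain library totals as the scale it was -6.52 and -6.93, still past the threshold in both fits. GRIA1, another AMPA subunit, had 140, 100 and 79 counts in the controls and 2 to 62 in the tumours. GRIN1, the subunit present in every NMDA receptor, had 34, 17 and 16 against 0 to 6.

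Some transcription factors of neurons were also among the 45, a set chosen for this order. TBR1, a factor of deep-layer cortical neurons (chr2:161416094-161425870, plus strand), had 281, 187 and 140 counts in the controls, 9, 20 and 2 in the primary tumours and 30, 12 and 17 in the recurrent tumours (log2 fold change -11.34, SE 1.23, edgeR adjusted p = 0.000423, with 3 controls). NEUROD6, a differentiation factor of excitatory neurons (chr7:31337461-31340894, minus strand), had 67, 70 and 43 counts in the controls and 0 to 10 in the tumours (log2 fold change -11.82, SE 1.18, edgeR adjusted p = 0.000423). FEZF2, a factor of neurons that project out of the cortex, had 14, 19 and 7 against 0 to 3. Groups did not overlap in any of these, nor in MYT1L, a factor that maintains neuronal identity, at 97, 65 and 53 counts against 1 to 16. BCL11A, expressed in cortical neurons and in other cells, had 463, 408 and 362 against 76 to 198 and was also counted in the culture, at 138.

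Neuron-specific RNA-binding proteins were a further part of the 45. RBFOX3, the splicing factor known as the neuronal antigen NeuN, had 307, 196 and 212 counts in the controls, 34, 10 and 5 in the primary tumours, 109, 35 and 24 in the recurrent tumours and 0 in the culture (log2 fold change -10.15, SE 1.29, edgeR adjusted p = 0.000538). ELAVL4 and ELAVL2 encode neuronal proteins that stabilise messenger RNA. ELAVL4 had 302, 207 and 256 counts in the controls and 6 to 52 in the tumours, and ELAVL2 had 299, 149 and 178 against 16 to 41. CELF4, another RNA-binding protein of neurons, had 443, 347 and 236 against 23 to 113. The lowest control stood above the highest tumour for each of these 4 genes.

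**Figure D1:**
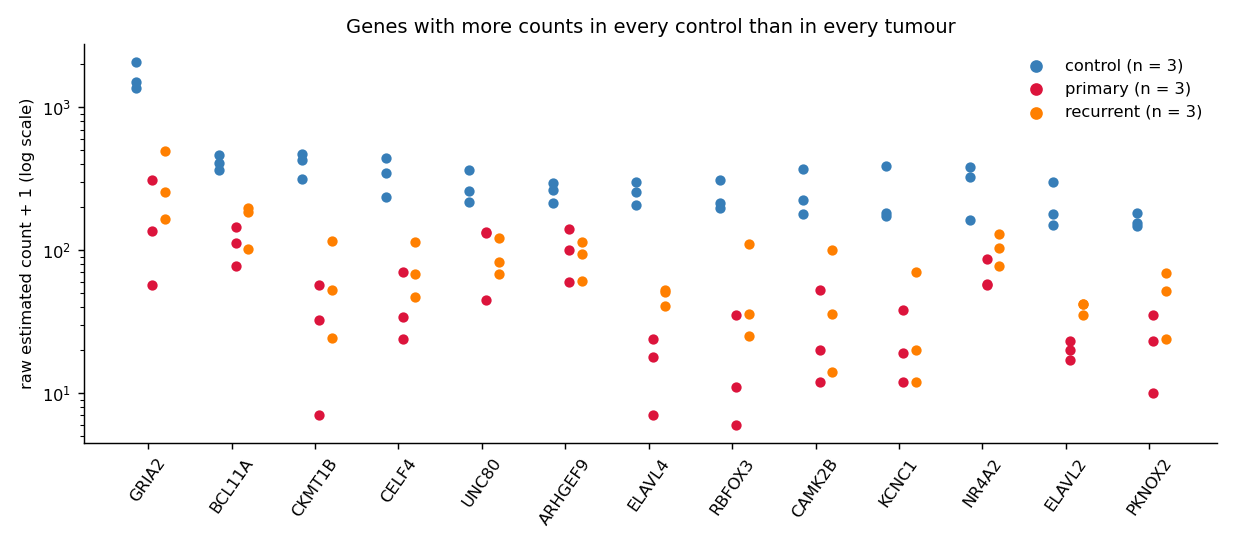
Raw estimated counts plus 1 (log scale) in each of 3 controls (blue), 3 primary (red) and 3 recurrent tumours (orange), for 13 leading protein-coding genes among the 45 in which every control exceeded every tumour. For GRIA2 the controls lie at 1369 to 2076 counts and the tumours at 56 to 493.

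Channels and kinases of neurons were also among the 45. KCNC1, a fast voltage-gated potassium channel, had 387, 173 and 182 counts in the controls and 11 to 69 in the tumours. CAMK2B, a subunit of the calcium-dependent kinase of synapses, had 372, 224 and 179 against 11 to 99. UNC80, a part of the sodium leak channel, had 361, 216 and 257 against 44 to 134. FBXL16, an F-box protein, had 164, 65 and 92 against 5 to 48. No control overlapped with a tumour in these 4 genes. CKMT1B, a mitochondrial creatine kinase, had 425, 470 and 316 against 6 to 115, but a near-identical copy exists, so how reads are divided is uncertain. ACTR3C, which has close relatives among the actin-related proteins, had 40, 16 and 17 counts in the controls and 0 in all 6 tumours, and its level is uncertain for the same reason. TAC1, the precursor of the neuropeptide substance P, was not one of the 45. It had 144, 38 and 11 counts in the controls, 49 in primary replicate 1, 36 in recurrent replicate 1 and 0 in the other 4 tumours, with a log2 fold change of -10.20 (edgeR adjusted p = 0.00358) with 3 controls. The call was lost without control replicate 1 (log2 fold change -7.28, edgeR adjusted p = 0.0571), with limma-voom (-8.61, adjusted p = 0.136), and with the primary (log2 fold change -10.27, edgeR adjusted p = 0.0586) or recurrent tumours alone (log2 fold change -10.37, edgeR adjusted p = 0.0915).

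Fitted over all genes (edgeR quasi-likelihood test, TMM scaling, Benjamini-Hochberg adjusted p under 0.05), 796 of 16389 genes (4.86%) were lower and 191 (1.17%) higher in tumours than in the 3 controls. Without control replicate 3, 1424 of 17223 genes (8.27%) were lower and 1524 (8.85%) higher. The median log2 fold change of all tested genes was 0.21 in the first fit and 1.16 in the second, and fold changes are to be read against these. The scale set the split between higher and lower. With plain library totals the median was 1.74 with 3 controls, where 343 genes were higher and 279 lower. It was 4.71 without control replicate 3, where 13123 were higher and 570 lower. Called lower under all 4 scales tried (TMM, RLE, library totals, and TMM with structural genes removed) were 182 genes with 3 controls and 361 without control replicate 3. Called higher under all 4 were 112 and 785.

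Single libraries moved these numbers as well. With 3 controls, 397 genes were lower without control replicate 1 and 1424 without control replicate 3. The number higher was 1524 without control replicate 3 and 125 without control replicate 1. It was 102, 125 and 103 without primary replicates 1, 2 and 3, and 121 and 115 without recurrent replicates 2 and 3. In the fit that left out control replicate 3, leaving out control replicate 1 as well gave 777 higher. The fits share the tumours and control replicates 1 and 2. In both, 763 genes were lower, of which 471 were protein-coding, 193 structural small RNA genes and 47 ribosomal RNA pseudogenes, and 28 were higher.

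Of the gene lists examined, synaptic genes had the lowest median. A list is described here by its counts and its median, with no test of the list. For every list, the shares to set beside its counts are those of all tested genes. These were 4.86% lower and 1.17% higher with 3 controls, and 8.27% lower and 8.85% higher without control replicate 3. Of 24 synaptic receptor, channel and vesicle genes, 17 were tested; 12 were lower and 0 higher with 3 controls (median log2 fold change -6.55 against 0.21 for all genes). Without control replicate 3, 13 were lower and 1 higher (median -7.55 against 1.16). Over the alternatives the median minus that of all genes ran from -8.72 to -2.08 and from -14.49 to -2.85. All 4 AMPA subunits were lower. GRIA3 had 338, 162 and 260 counts in the controls and 59 to 187 in the tumours, and GRIA4 had 24, 9 and 9 against 7 to 35, so the raw counts of both overlapped. The others lower with 3 controls were the NMDA subunit GRIN2B, the sodium channels SCN1A and SCN8A, the calcium channels CACNA1A and CACNA1E, the vesicle protein SYN1, KCNC1 and DLG4. DLG4, the postsynaptic scaffold PSD-95, had fewer raw counts in the controls (135, 97 and 147) than in the tumours (295 to 882) and was lower in tumours after scaling (log2 fold change -5.43, edgeR adjusted p = 0.000815). The gene called higher without control replicate 3 was SV2A, a vesicle glycoprotein, at 1, 2 and 191 counts in the controls and 973 to 2083 in the tumours (log2 fold change 2.04, edgeR adjusted p = 0.0213).

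The neuron markers split. Of 14 tested, 7 were lower with 3 controls (median -3.10) and 9 without control replicate 3 (median -4.21), and 0 were higher in either fit. Among all tested genes 4.86% and 8.27% were lower in these fits. Over the alternatives the median minus that of all genes ran from -5.38 to -0.84 with 3 controls and from -10.63 to -1.23 without control replicate 3. The 7 were RBFOX3, GRIN1, SNAP25, CAMK2A, SYP, NEFM and KIF5A. SNAP25, a protein of vesicle fusion, had 179, 58 and 77 counts in the controls and 27 to 72 in the tumours (log2 fold change -9.03, SE 1.02, edgeR adjusted p = 0.000423). CAMK2A, the partner subunit of CAMK2B, had 22, 19 and 35 against 1 to 17. SYP and NEFM, of vesicles and axons, rested on 7, 0 and 4 and 5, 1 and 3 counts in the controls. The call with 3 controls was lost for SYP in 5 and for NEFM in 9 of 15 alternatives, among them limma-voom and library totals. Without control replicate 1 SYP was at -1.72 (edgeR adjusted p = 0.436) and NEFM at -2.88 (edgeR adjusted p = 0.366); leaving out primary replicate 2 or recurrent replicate 3 also ended both calls, and leaving out control replicate 2 or recurrent replicates 1 or 2 that of NEFM. KIF5A, an axonal motor, had more raw counts in the tumours (87 to 313) than in the controls (14, 5 and 52). It was called lower under TMM scaling (log2 fold change -2.78, edgeR adjusted p = 0.0256) and not with library totals (log2 fold change -0.46, edgeR adjusted p = 0.527). Its call was also lost with limma-voom, with either kind of tumour alone, and without control replicate 1 or 2 or primary replicate 2.

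Other neuron markers had high counts in the tumours and in the culture. NEFL, the light neurofilament, had 2, 96 and 2217 counts in the controls, 18624 to 56282 in the tumours and 31044 in the culture. THY1, a surface glycoprotein, had 2, 27 and 724, 5356 to 10686 and 12196. Neither passed the test in either fit. The summed neuron list stood at 5702, 2551 and 1288 CPM (taken over the counts outside structural genes) in control replicates 1 to 3 and at 1514 ± 242 (SD, n = 6) in the tumours (two-sided exact permutation p = 0.143). Control replicate 3 lay within the tumours' range and the other controls above it. As CPM of the whole library the sign turned, and the tumours were 831 CPM higher (exact permutation p = 0.0238). Leaving out NEFL, THY1, ENO2 and MAP2, chosen after their values were seen, the sum was 5542, 1812 and 162 CPM in the controls and 30.9 ± 4.56 (SD, n = 6) in the tumours. The markers left out were those with most counts in the tumours, so this sum is a description with no test. It was 33.4 ± 2.16 (SD, n = 3) in the recurrent and 28.3 ± 5.30 (SD, n = 3) in the primary tumours.

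Other brain cell types gave less signal. MBP, myelin basic protein of oligodendrocytes, had 25, 13 and 5 counts in the controls and 17 to 79 in the tumours (log2 fold change -5.63, edgeR adjusted p = 0.0117). It was lower in both fits, and its raw counts overlapped between the groups. Of 3 tested markers of oligodendrocyte precursors, LHFPL3 was lower in both fits, at 19, 24 and 8 counts in the controls and 17 to 38 in the tumours. CSPG4 was called lower with 3 controls (log2 fold change -2.79, edgeR adjusted p = 0.021) on 0, 0 and 82 counts in the controls against 14 to 122 in the tumours, so that call rests on control replicate 3, and without it the direction turned with no call (log2 fold change 8.62, edgeR adjusted p = 0.515). Of 7 astrocyte markers tested none was called with 3 controls; GFAP, the astrocyte filament, had 6, 52 and 561 counts in the controls, 5988 to 23670 in the tumours and 8959 in the culture. Without control replicate 3, SOX9 and GJA1 of 8 tested were higher. None of 6 tested endothelial and pericyte markers and none of 3 tested ependymal markers was called in either fit. Of 12 microglia and macrophage markers, 8 were at 0 in all 9 libraries (AIF1, CX3CR1, P2RY12, C1QA, C1QB, C1QC, TYROBP and PTPRC), as were all 6 red blood cell genes. The red blood cell list therefore has no comparison. Of 3 microglia and macrophage markers tested without control replicate 3, 1 was called: CD68, a lysosomal protein of macrophages and other cells, had 0, 0 and 89 counts in the controls, 407 to 782 in the tumours and 1423 in the culture, and was higher in that fit (edgeR adjusted p = 0.0128). It was not called with 3 controls (log2 fold change 0.07, edgeR adjusted p = 0.957).

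Genes of neural development and of splicing were lower in part. Of 20 developmental transcription factors, 7 were lower and 0 higher with 3 controls (median -1.23), and 11 lower and 1 higher without control replicate 3 (median -1.47). Among all tested genes 4.86% and 8.27% were lower in these fits. MEIS2, a homeobox factor, had 426, 221 and 288 counts in the controls and 548 to 1128 in the tumours (log2 fold change -6.18, edgeR adjusted p = 0.000808). ZEB2, a zinc-finger factor of neural crest and glia, had 637, 538 and 769 against 2798 to 6424 (log2 fold change -4.69, edgeR adjusted p = 0.00148). POU3F3 and FOXP2, factors of forebrain neurons, had 154, 61 and 82 and 98, 28 and 45 counts in the controls and 17 to 98 and 12 to 61 in the tumours. The raw counts of both overlapped between the groups. The other 3 were BCL11A, TCF4 and NFIA.

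Of 26 splicing factors, 7 were lower and 0 higher with 3 controls (median -0.85), and 13 lower and 1 higher without control replicate 3 (median -1.11). Among all tested genes 4.86% and 8.27% were lower in these fits. SRSF1, a serine and arginine-rich factor, had 938, 720 and 1498 counts in the controls and 4372 to 9053 in the tumours (log2 fold change -4.61, edgeR adjusted p = 0.00129). HNRNPH1, a ribonucleoprotein that binds G-rich RNA, had 693, 646 and 1474 against 5502 to 10844 (log2 fold change -4.03, edgeR adjusted p = 0.00171). PTBP2, the polypyrimidine tract protein of neurons, had 169, 180 and 166 against 404 to 629 (log2 fold change -5.86, edgeR adjusted p = 0.000588). Its relative PTBP1, which is widely expressed outside neurons, had 7, 21 and 732 against 4589 to 10633 and was the one higher without control replicate 3 (log2 fold change 1.25, edgeR adjusted p = 0.0196). HNRNPA1 and HNRNPC of the same list passed in neither fit, with 57, 124 and 2373 and 21, 70 and 1331 counts in the controls.

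**Figure D2:**
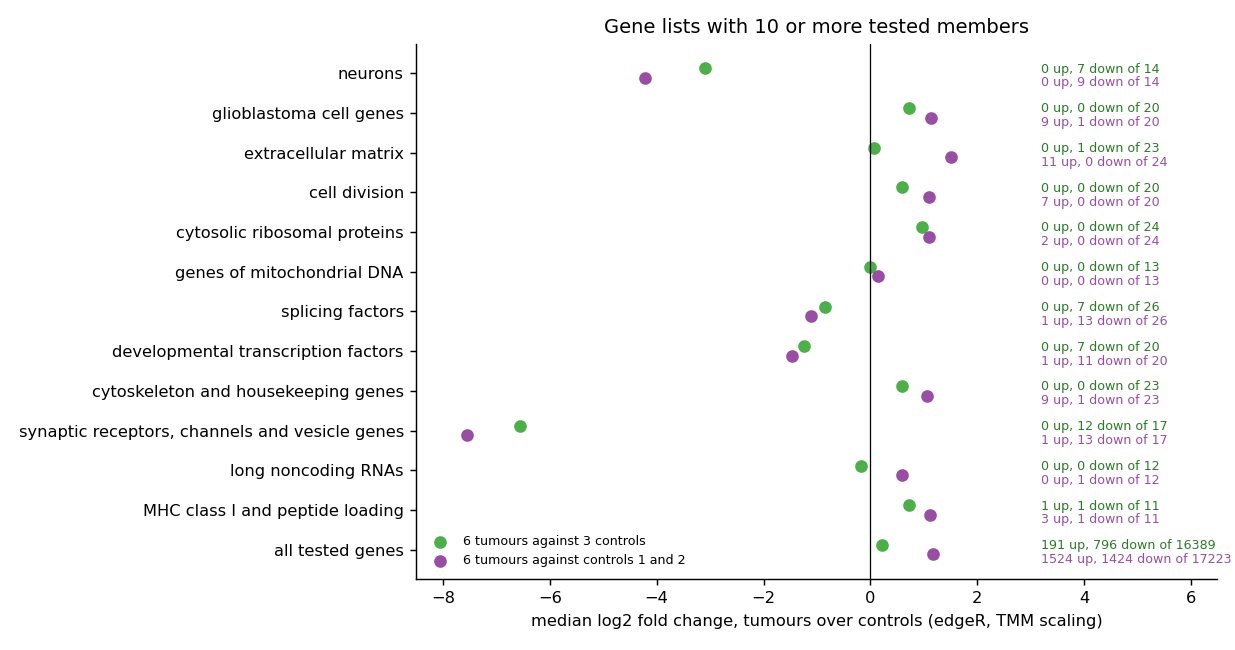
Median log2 fold change (tumours over controls, edgeR, TMM scaling) of each gene list with 10 or more tested members and of all tested genes, with 3 controls (green) and without control replicate 3 (purple), with the numbers called up and down at the right. Synaptic genes lie at -6.55 and -7.55 and all tested genes at 0.21 and 1.16.

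Genes of glioblastoma cells were called in part without control replicate 3 and hardly at all with it; the difference between the fits was not tested. Of 20 glioblastoma cell genes, 0 passed with 3 controls, and 9 were higher and 1 (EGFR) lower without control replicate 3. EGFR had 21, 41 and 560 raw counts in the controls and a mean of 3299 in the tumours, so its call as lower rests on the scale. VIM, the filament vimentin, had 38, 316 and 10802 counts in the controls and 61155 to 151857 in the tumours (log2 fold change 1.54, edgeR adjusted p = 0.0361, without control replicate 3). CD44, the hyaluronan receptor, had 34, 234 and 7594 against 44639 to 100789 (log2 fold change 1.42, edgeR adjusted p = 0.0325). Of the matrix list 11 of 24 tested were higher without control replicate 3. With 3 controls 0 of 23 were higher and 1 was lower, the collagen gene COL3A1, at 0, 0 and 18 counts against 0 to 20. SPARC, a secreted matrix glycoprotein, had 26, 167 and 14978 against 59259 to 180997 (log2 fold change 2.42, edgeR adjusted p = 0.00482, without control replicate 3). In that fit, where 8.85% of all genes were higher, 7 of 20 cell division genes, 9 of 23 cytoskeleton and housekeeping genes and 2 of 24 ribosomal protein genes were higher, the last near the share of all genes. The gene EEF1A2 of the cytoskeleton and housekeeping list was lower, and 0 of 13 genes of mitochondrial DNA were called. With 3 controls none of these lists had a call. Whether these shares differ from each other was not tested, and they move with the scale as the counts over all genes do. In the fit without control replicate 3, the median log2 fold change minus that of all genes was -0.0287 for glioblastoma cell genes. It was -0.0714 for cell division, -0.108 for cytoskeleton and housekeeping and -0.0602 for ribosomal protein genes, and 0.341 for the matrix list. Of these lists only the matrix list had a median above that of all genes, despite the shares called higher.

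Genes without a rat counterpart had few counts in control replicates 1 and 2, at most 10 each, as did most genes in those small libraries. Of 11 genes listed from textbook knowledge as such, 8 were tested. Their median log2 fold change was 0.45 with 3 controls and 0.20 without control replicate 3, against 0.21 and 1.16 for all genes. Over the counts outside structural genes, the list summed to 122 and 151 CPM in control replicates 1 and 2. In the tumours it summed to 155 to 239 CPM. MICA, a stress ligand of the immune system, had 0, 1 and 74 counts in the controls and 626 to 1269 in the tumours (log2 fold change 3.13, edgeR adjusted p = 0.0355, without control replicate 3). MICB, its relative, had 0, 0 and 1 against 67 to 287 and was the one called with 3 controls (log2 fold change 4.25, edgeR adjusted p = 0.0439). CASP10, a caspase, was called lower without control replicate 3 on 5, 0 and 0 counts in the controls against 8 to 51 in the tumours (log2 fold change -4.62, edgeR adjusted p = 0.0342). Of 11 genes of MHC class I antigen presentation, PSMB8, an immunoproteasome subunit, was higher with 3 controls at 2, 12 and 152 counts against 2440 to 4389 (log2 fold change 1.22, edgeR adjusted p = 0.0429), and B2M and HLA-E were higher without control replicate 3. HLA-F, a nonclassical class I gene, was lower in both fits at 16, 17 and 795 counts against 1116 to 2115 (log2 fold change -1.79, edgeR adjusted p = 0.00273, with 3 controls); it has close relatives, so its own level is uncertain. Of 12 long noncoding RNAs, 0 were called with 3 controls and 1, TUG1, was lower without control replicate 3 at 14, 37 and 358 counts against 1623 to 4032. The raw counts of HLA-F and TUG1 were higher in every tumour than in every control, so both calls as lower rest on the scale.

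Of the 28 genes higher in both fits 25 were protein-coding, and none of the 28 overlapped between the groups on the TMM scale. ENSG00000285976 (GRCh38 chr6:63572012-63583587, plus strand) was at 0 in all 3 controls and had 1585, 2055 and 2866 counts in the primary and 1316, 2367 and 1788 in the recurrent tumours. Against a limit of 3 counts over the 3 controls together it was at least 84.1-fold higher in tumours. It overlaps PTP4A1, a phosphatase gene on chr6:63521746-63583377, which had 4, 28 and 267 counts in the controls and 715 to 2207 in the tumours, so how reads are divided between the pair is uncertain. It was the one higher gene that met the rule for naming genes, and the genes that follow were chosen after their values were seen. IFI44L, an interferon-induced gene, had 1, 3 and 39 counts in the controls and 1608 to 2966 in the tumours (log2 fold change 2.63, SE 0.32, edgeR adjusted p = 0.000524, with 3 controls). MX1, an interferon-induced GTPase, had 0, 1 and 111 against 1634 to 3042 (log2 fold change 1.82, SE 0.43, edgeR adjusted p = 0.0236).

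Enzymes and secreted proteins were also among the 28. PADI2 and PADI3 convert arginine in proteins to citrulline. PADI2 had 2, 6 and 68 counts against 1966 to 4355 (log2 fold change 1.96, SE 0.31, edgeR adjusted p = 0.00205) and PADI3 had 2, 7 and 98 against 2689 to 4325. SPP1, the secreted phosphoprotein osteopontin, had 4, 45 and 498 against 6996 to 23320 (log2 fold change 1.80, SE 0.46, edgeR adjusted p = 0.0377). BEX1, a small protein of neural cells, had 0, 2 and 34 against 894 to 2373. All 5 of IFI44L, MX1, PADI2, PADI3 and SPP1 had more raw counts in the culture, a library of 65058642 counts, than in any tumour, and BEX1, at 395 counts, was lower there than in every tumour.

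Each control held a different share of the tumour profile. Over the 5090 protein-coding genes with a mean of at least 1000 counts in the tumours, the median ratio of a control's raw count to the tumour mean was 0.0757% in control replicate 1, 0.480% in control replicate 2 and 11.4% in control replicate 3. Of these genes 1337, 101 and 1 were at 0 in control replicates 1 to 3. In control replicate 3 the central 80% of genes lay between 7.73% and 16.0%, and 2 genes exceeded 5 times the median. In control replicate 1, 653 genes (12.8%) exceeded 5 times its median and in control replicate 2, 140 (2.75%). The log2 profile correlated with the tumour mean at 0.495, 0.692 and 0.926 in control replicates 1 to 3, and each tumour with the mean of the other 5 at 0.932 to 0.988. These correlations are across genes, which are not independent, in libraries of unequal depth. With a minimum of 100 or of 5000 counts, chosen after seeing the data, the median for control replicate 3 was 11.2%.

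**Figure D3:**
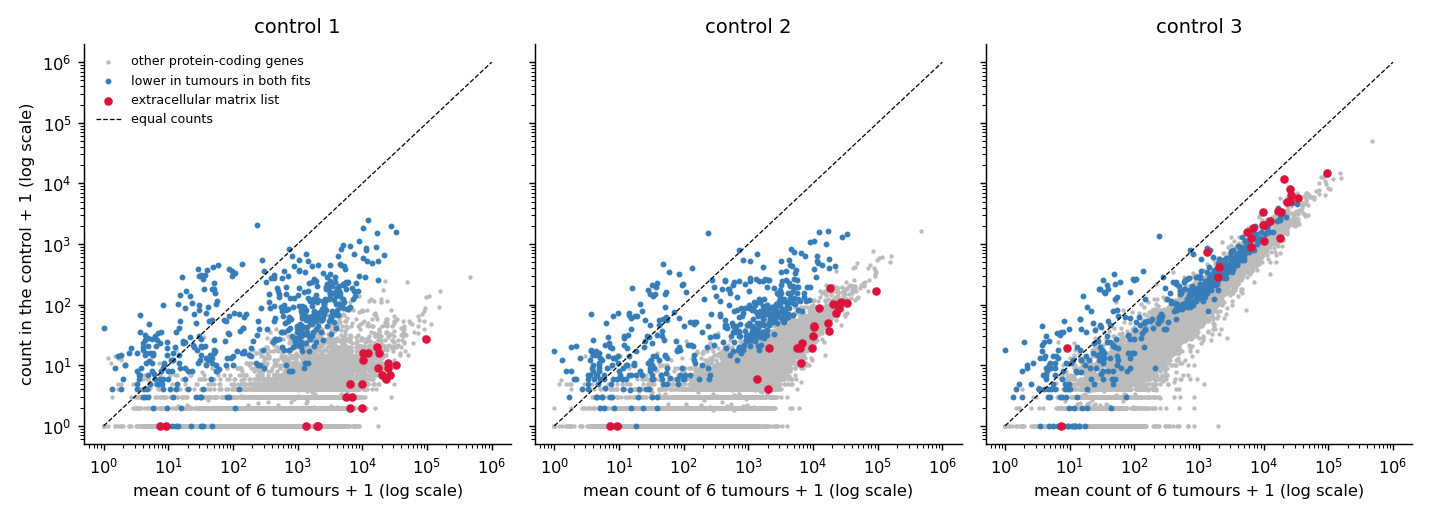
Count plus 1 in each control against the mean count plus 1 of the 6 tumours (both log scales), 1 point per protein-coding gene, with genes lower in tumours in both fits in blue, the extracellular matrix list in red and a dashed line of equal counts. In control replicate 3 most genes follow a line near 11.4% of the tumour mean, while in control replicates 1 and 2 the blue genes lie above the bulk.

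On the TMM scale control replicate 3 lay close to the tumours. For the 1524 genes higher in tumours in the fit that left it out, its log2(CPM + 1) was a median 97.9% of the way from the mean of the other controls to the tumour mean (quartiles 87.9% and 107%). For the 1424 lower genes it was 89.8% (77.8% and 103%), or 66.0% with library totals. It lay within the range of the tumours in 656 of the higher and 455 of the lower genes. A measure built in the same way, each time from a fit without the control in question, was taken for the other controls. In control replicate 1 it was -7.41% (quartiles -39.2% and 0%) for higher and -105% (-138% and -70.3%) for lower genes. In control replicate 2 it was 1.61% (-7.48% and 98.9%) and -12.2% (-25.6% and 9.39%), and 25 of its 208 higher genes lay within the range of the tumours. For control replicates 1 and 2, both the fit that chose the genes and the mean of the other controls included control replicate 3. Their values therefore do not compare directly with those of control replicate 3. These are descriptions of single samples.

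Control replicate 3 lay outside the range of the tumours in many genes, and 1 tumour departed from the others in more genes. On the TMM scale control replicate 3 lay outside the range of the 6 tumours in 56.1% of the 5090 genes. Primary replicate 2 lay outside the range of the other 5 tumours in 69.2%, and the remaining tumours in 15.6% to 36.7%. Of 22 matrix genes with a mean tumour count of at least 1000, 18 exceeded every tumour on the TMM scale and 0 fell below every tumour, beside 26.3% above and 29.7% below among the 5090 genes. The median of their ratios was 1.78 times the median of all genes, 1.65 times against the primary tumours alone and 2.00 times against the recurrent tumours alone. COL1A1, a chain of fibrillar collagen, had 6, 103 and 11848 counts in control replicates 1 to 3 and 6894 to 56559 in the tumours. At 2052 scaled CPM (CPM of the TMM-scaled total) control replicate 3 stood above all 6 tumours, at 149 to 748, and the culture held 1122 raw counts. BGN, a small proteoglycan, stood at 127 scaled CPM against 5.68 to 45.6, and FBN1, a microfibril protein, at 577 against 140 to 235. POSTN, a matricellular protein, was at 221 scaled CPM, inside the 179 to 535 of the tumours.

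Ribosomal protein genes lay on the other side, with all 24 below every tumour and a median of 0.631 times that of all genes. RPS6, of the small subunit, stood at 374 scaled CPM against 551 to 1289 in the tumours. Of 19 cell division genes 11 lay below every tumour and 1 above. Genes of mitochondrial DNA lay above every tumour in 8 of 12 and developmental transcription factors in 8 of 10. The 6 lowest of the 5090 genes in control replicate 3, relative to the tumour mean, were ENSG00000285976 at 0, FLG (the skin protein filaggrin, 0.334%), ADM (the vasodilator adrenomedullin), EGLN3 (an oxygen-dependent prolyl hydroxylase, 1.55%), SCG2 (a secretory granule protein, 1.55%) and DIRAS3 (a Ras-like GTPase, 1.66%). FLG varied widely among the tumours, at 0.873 to 98.4 scaled CPM, and control replicate 3 at 0.693 was close to the lowest of them. ADM had 6, 19 and 27 counts in the controls and 173 to 4046 in the tumours. EGLN3 had 2, 10 and 32 against 582 to 2836. On the TMM scale control replicate 3 was below all tumours in both (ADM 4.68 against 4.72 to 90.4 scaled CPM, EGLN3 5.54 against 15.9 to 59.1), and the lowest tumour was recurrent replicate 1. The single genes of control replicate 3 were chosen after their values were seen. It is 1 library with 31.6% of its counts in structural genes, and the part of that share in these differences was not tested.

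**Figure D4:**
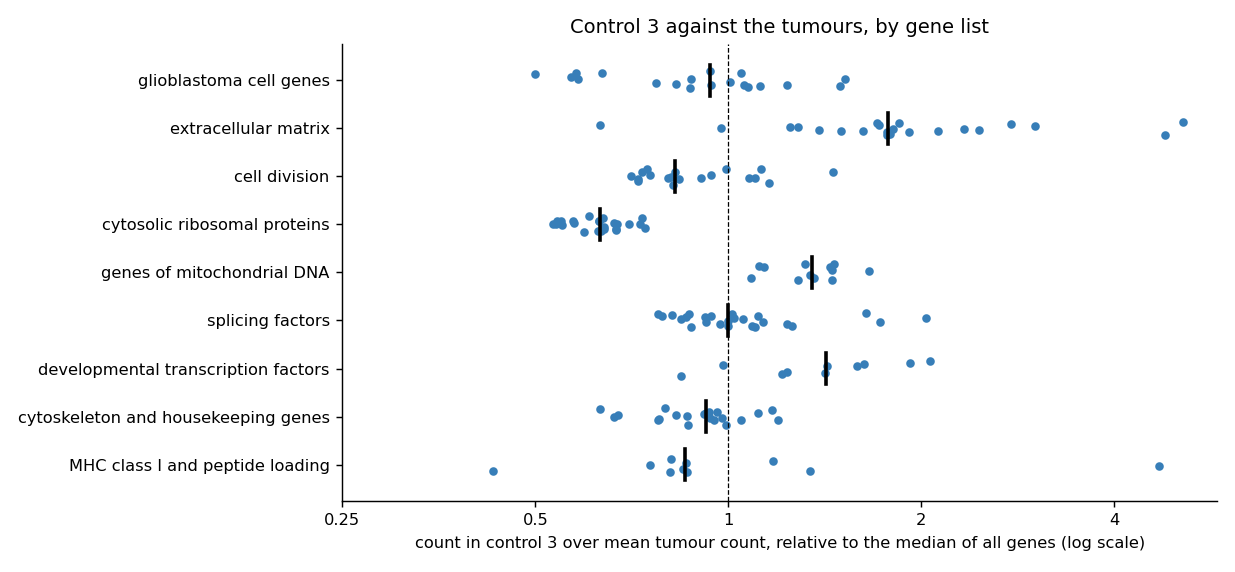
Count in control replicate 3 over the mean tumour count, relative to the median of 5090 protein-coding genes (log scale, dashed line at 1), 1 point per gene with a mean tumour count of at least 1000, for lists with 10 or more such genes; black bars are list medians and the vertical scatter carries no value. The matrix median lies at 1.78 and the ribosomal protein median at 0.631.

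The genes lower in tumours also varied among the tumours. For 284 protein-coding genes lower in both fits, with at least 10 counts in each control and no overlap between the groups, the median level in a tumour was 3.65% to 4.51% of the mean of control replicates 1 and 2. Recurrent replicate 1, the tumour with the lowest graft percentage, was the highest of the 6 in 86 of these genes on the TMM scale, recurrent replicate 2 in 69, recurrent replicate 3 in 56 and primary replicates 1 to 3 in 29, 27 and 17. This order did not follow the graft percentage throughout, which was 42.67% in recurrent replicate 2, 33.05% in recurrent replicate 3 and 42.52% in primary replicate 1. Primary replicate 2, whose profile correlated least with the other tumours, was the lowest in 145. GRIA2 scaled CPM was lower in tumours with a higher labelled graft percentage (n = 6, Pearson r = -0.801, exact permutation p = 0.0194; Spearman rho = -0.943, exact permutation p = 0.0167). Without recurrent replicate 1 and primary replicate 3, the samples farthest from the median graft percentage, r was -0.490 over 4 tumours, so the relation rests on those samples. It was 1 relation, computed after the values were seen, and the primary and recurrent tumours hold too few samples for a value of their own.

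The protein-coding genes lower in both fits were set beside all tested protein-coding genes in features the fit did not use, as a description. The longest transcript of the 471 genes had a median of 5367 bases (quartiles 3846 and 7665), against 3762 (2443 and 5560) for all 13273 tested. Their median GC content was 45.2% against 48.0%. Of the 471, 71 (15.1%) had under 10 counts in the culture, against 218 (1.64%) of all tested. A gene could be tested on its counts in the controls alone, so the filter and the calls may build in part of this difference.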

How the data were processed

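RNA was sequenced from 6 tumours, 3 controls and 1 culture. Per the labels' protocols, tumours were cut out of frozen brain slices, RNA was column-purified with no DNase treatment, and stranded libraries depleted of ribosomal RNA were read as pairs. The submitters' processing notes name STAR, Salmon 1.10.3, DESeq2 and GRCh38; the sources used here do not say which reads (graft, host or both) entered the table. The authors deposited Salmon estimated counts per gene, not scaled between libraries, for 62754 genes, of which 58261 matched GENCODE release 29, the source of types, coordinates and sequences. Salmon divides reads shared by similar transcripts by a model.

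Groups came from the treatment labels, and replicate numbers follow the order of the records. The members and lists were chosen with earlier results of these data known. Estimated counts were rounded and tested with edgeR 4.0.16 in R 4.3.3 (filterByExpr, TMM, two-sided quasi-likelihood F test, no covariates). DESeq2 1.42.0, limma 3.58.1 (voom), other scales and filters and left-out samples were alternatives, and the scripts were tested on simulated data. SE is the log2 fold change divided by the square root of F. Shares and the correlation used exact permutation tests (scipy 1.17.1, and enumeration in Python 3.11.15). Structural small RNA genes were 5210 genes by type or name. A count of 0 allows up to 0.0755 to 0.148 CPM in the tumours and 0.721 to 2.21 in the controls (3 counts).

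Genes were named by rule. Those called in both fits without overlap gave the higher genes under 3 counts in each control or with a large change. They also gave the 14 lowest with at least 10 counts in each control and 4 other noncoding genes. The 6 leading structural genes and each list's 4 tested members with most counts were taken by their counts, called or not. Others are said to be chosen after their values were seen or stand as examples of their list. The 4 noncoding genes (UBBP4, PTENP1, SUMO2P1 and ENSG00000258656) are not described, since pseudogene and overlapping counts are uncertain. Some withheld items are not reported here.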

Additional observations from a re-analysis of the deposited data

Results flagged for a closer look

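Of 34 named values examined over the 6 tumours, 10 had a highest library that stood apart by Dixon's test. The test compares the gap from that library to the next with the whole range. Its rate of about 1 in 20 holds for independent, normally distributed values. The scaled CPM used here were not transformed and are not independent, so the 10 cannot be set against that rate. In 7 of the 10 the highest library was recurrent replicate 1, and the values share its depth and scale. The gap was 0.774 of the range for RBFOX3 (2.98 scaled CPM, against 0.0662 to 0.723 in the other 5 tumours), 0.772 for CAMK2A, 0.71 for FBXL16, 0.652 for MYT1L, 0.646 for CKMT1B, 0.642 for KCNC1 and 0.635 for CAMK2B. NEUROD6 was highest in primary replicate 2, with 10 counts and a gap of 0.652. RNA5-8SN1 (0.865) and RNA5-8SN4 (0.652) were highest in recurrent replicate 3, where the sum over the 5.8S genes was 309060 counts, and the division of reads among such copies is uncertain.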

How the results depend on the processing

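No paired analysis was possible because the labels give no replicate numbers that tie tumours to controls. With 3 controls (191 higher, 796 lower), the number higher was 32 with limma-voom, 343 with library totals, 77 with a mean count of at least 100, 23 with the primary and 6 with the recurrent tumours alone, and 102 to 1524 with 1 library left out. The number lower was 1275 with DESeq2, 212 with limma-voom, 279 with library totals, 1409 with no filter, 383 with a mean count of at least 100, 336 with the primary and 132 with the recurrent tumours alone, and 397 to 1424 with 1 library left out. Without control replicate 3 (1524 higher, 1424 lower), the number higher was 724 with DESeq2, 212 with limma-voom, 786 with RLE, 13123 with library totals, 700 with a mean count of at least 100, 332 with the primary and 324 with the recurrent tumours alone, and 777 to 1544 with 1 library left out. The number lower was 570 with library totals, 2172 with no filter, 770 with a mean count of at least 100, and 1082 to 1382 with 1 library left out. Fewer genes or samples entered the fits with a higher minimum or with 1 kind of tumour; the other causes were not tested.

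The difference in structural share was -61.0 with the primary and -60.8 percentage points with the recurrent tumours alone (exact permutation p = 0.1, the smallest possible), and -80.7 to -50.4 with 1 library left out. That in mitochondrial DNA share turned to -0.298 without control replicate 1, in a range of -0.298 to 0.340. That in neuron marker share turned to 831 CPM of the whole library and was -2475 without 4 markers, an alternative chosen after seeing the data, and -2612 to -405 with 1 library left out. The position of control replicate 3 for lower genes was 66.0% with library totals, also chosen after seeing the data. Of the named genes' values under alternatives, 767 kept their direction and side of the threshold, 33 lost the call and 1 reversed: SYP in the fit without control replicate 3, at 5.91 when control replicate 1 was also left out (edgeR adjusted p = 0.913) and -8.11 to 5.91 over all left-out libraries. Of the gene lists' medians less that of all genes, 614 moved by less than the spread of their genes and 51 by more, most often in the ribosomal protein and mitochondrial DNA lists. Where 1 control was left it was assumed to vary like the tumours. The controls' depth outside structural genes limits all of these results.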
